A study of Mus musculus with 2 samples.

Results

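The Retnlg-low tumour neutrophils were the cell barcodes of pancreatic tumours that carried the neutrophil transcripts S100a8, S100a9 and Csf3r but little Retnlg. A barcode was a member when it held at least 500 genes, at most 15% mitochondrial transcripts, at least 10 S100a8 and S100a9 counts together, at least 1 Csf3r count, at most 2 Retnlg counts, at most 2 of C1qa, C1qb and C1qc together and at most 5 of Krt8, Krt18 and Krt19 together. Counts here are unique molecular identifiers (UMIs), each standing for 1 captured RNA molecule. This selection gave 185 members among 22472 cells that passed the gene and mitochondrial limits, 118 of 11664 in one library, the control, and 67 of 10808 in the other, the knockout. Because the members were chosen by S100a8, S100a9, Csf3r, Retnlg, the C1q genes and the keratins, the levels of those genes are given as description only.

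The study implanted KPC cells, a mouse pancreatic cancer line, into the pancreas of mice and took the tumours at day 21. The control group was Porcnfl/fl (WT) littermates, which carry the floxed Porcn allele without Cre, and the knockout group was Csf1r-Cre;Porcnfl/fl (KO). Porcn encodes the acyltransferase that Wnt ligands need for secretion. The labels call the deletion macrophage-specific, and Csf1r, whose promoter drives the Cre, is a gene of monocytes and macrophages. Tumours of 5 mice were pooled into 1 library per group, so no spread between mice is known, no test between the groups was possible, and every interval below is a 95% exact interval that covers counting error only.

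Neutrophils are short-lived granulocytes. They fill their granules in stages while they mature in the bone marrow, and stop making most granule proteins before they enter the blood. In tumours, aged neutrophils are known to lose Retnlg and gain cytokine, chemokine and hypoxia transcripts, and in inflamed tissue some carry interferon-induced transcripts. Interferons act on genes whose promoters often hold an interferon-stimulated response element.

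The 2 libraries held 171485719 UMIs in control and 135857506 in knockout over the cells that passed the limits, with a median of 12235 and 10321 UMIs per cell. Members were much shallower than most cells, with a median of 1768 UMIs (870 to 25711) in control and 1861 (1066 to 18165) in knockout, against 16164 and 17370 in tumour cells. The libraries shared 46 barcode sequences, and 0 of those were members. The doublet caller marked 1.27% of control and 3.16% of knockout cells, of which 0 and 1 were members. Any UMI of Cd3e, Cd79a, Col1a1, Epcam, Pecam1, Flt3 or Adgre1, genes of other lineages, was found in 29 control and 18 knockout members. T cells with both Cd3d and Cd3e numbered 123 in control against 1162 in knockout.

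The members were set against marker lists without the genes of the selection, which fix their own levels. Levels are counts-per-million (CPM), the UMIs of a gene scaled to the summed UMIs of the cell group. All 15 other neutrophil markers had UMIs in members of both libraries. They summed to 24800 CPM in control and 41788 CPM in knockout members, against 1249 and 1088 CPM in macrophages. The 8 macrophage markers other than the C1q genes summed to 219 and 283 CPM in members, against 8454 and 13812 CPM in macrophages, and Ms4a7 was at 0 in members of both libraries. The 5 epithelial markers other than the selecting keratins were too low to serve as a check, with 20.5 and 36.3 CPM in the tumour cells themselves and 49.9 and 25.8 CPM in members. Eosinophil markers gave 4 UMIs in each library.

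Not all of the members suited the name tumour neutrophil. A group of 16 control and 2 knockout members held large numbers of transcripts of the secondary granule genes Camp, Ngp and Ltf, which encode a cathelicidin, neutrophilic granule protein and lactoferrin. The sum of Camp, Ngp and Ltf ran from 128 to 1998 UMIs in the 16 control cells, with a median of 981, and was 364 and 985 in the 2 knockout cells. In all other members it was at most 2 UMIs in control and 3 in knockout, with 93 of 102 and 56 of 65 cells at 0. No member lay between these ranges. The 18 are called granule-transcript cells below, set by 20 or more UMIs of the 3 genes. That limit was chosen after the values were seen.

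**Figure D1:**
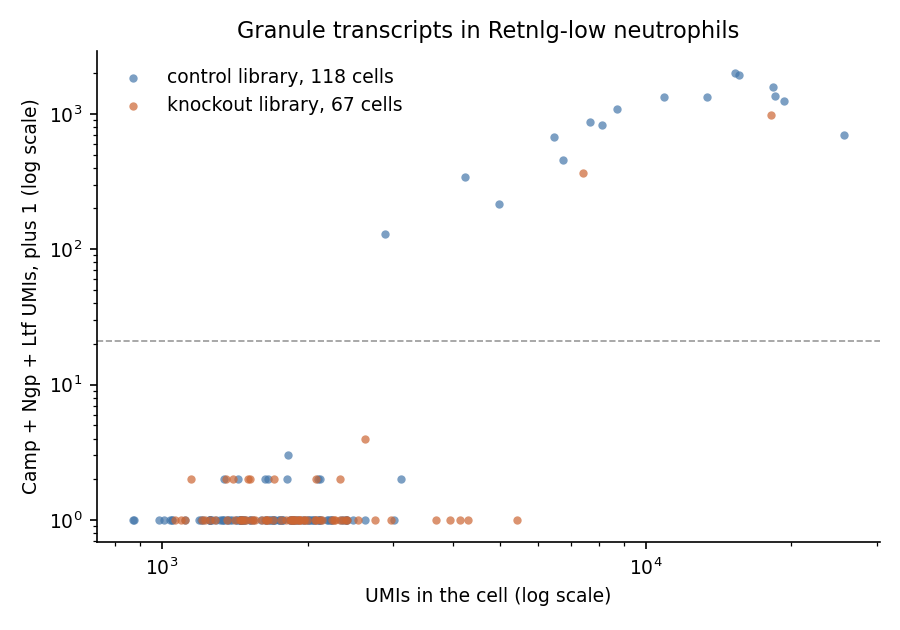
Sum of Camp, Ngp and Ltf UMIs plus 1 (log scale) against UMIs in the cell (log scale) for each Retnlg-low cell, coloured by library, with a dashed line at the limit of 20 UMIs. The 16 control and 2 knockout cells above the line stand apart from the 102 and 65 cells below it, and most of them hold more UMIs.

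Most granule-transcript cells lacked Il1b and Cxcl2 transcripts, which most other members carried. Il1b, which encodes the interleukin-1 beta precursor, was at 0 in 16 of 16 control granule-transcript cells, and Cxcl2, a chemokine that attracts neutrophils, was at 0 in 15 of 16. The proliferation gene Mki67 was seen in 13 of the 16, the granulocyte surface gene Ly6g in 11, and Elane, encoding neutrophil elastase of primary granules, at 5 or more UMIs in 3. Of the 2 knockout cells, 1 was the called doublet, and it held all 100 Cxcl2 UMIs of the pair. The other held 46 UMIs of T and NK markers and also was among the cells counted above as T cells. These cells were deep, with a median of 9810 UMIs in control, and they supplied 51.8% of all control member UMIs but 16.5% of knockout member UMIs. For that reason each knockout-to-control value below is given over all members and over the members without granule-transcript cells.

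Without them, 102 control and 65 knockout members remained, which had a median of 1687 (870 to 3118) and 1855 (1066 to 5425) UMIs and summed to 49603 and 48893 CPM of the 15 neutrophil markers. Ly6g had 1 UMI in 1 control cell and 0 in knockout, where a count of 0 allows up to 23.1 CPM (3 UMIs). Cxcl2 had UMIs in 75 of 102 control and 49 of 65 knockout cells, and Il1b in 95 and 64.

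Members were fewer among the knockout cells. Their share of control cells was 1.01% (0.838 to 1.21) and that of knockout cells was 0.62% (0.481 to 0.787), a ratio of 0.613 (0.447 to 0.834). Without granule-transcript cells the shares were 0.874% (0.714 to 1.06) and 0.601% (0.464 to 0.766), a ratio of 0.688 (0.496 to 0.948). Neutrophils that met every limit but held 3 or more Retnlg UMIs, called Retnlg-high below, were 68 control and 27 knockout cells, or 0.583% and 0.25%, a ratio of 0.429 (0.264 to 0.678). Members were therefore 63.4% (56.1 to 70.4) of the gated neutrophils in control and 71.3% (61 to 80.1) in knockout, and these intervals overlap. The knockout library also held 1162 T cells against 123, which enter the denominator, and their part in these ratios was not tested.

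The Retnlg limit ran through a graded range. Retnlg was at 0 in 83 control and 47 knockout members, at 1 in 18 and 13, and at 2 in 17 and 7. Just outside it, 2 control and 6 knockout cells had 3 UMIs, and 16 and 12 had 3 to 5. The S100a8 and S100a9 sum was 10 to 14 in 10 control and 8 knockout members, and 14 and 8 cells failed only that limit with a sum of 5 to 9. Csf3r was at 1 UMI in 20 and 13 members, while 21 and 26 cells failed only through a Csf3r count of 0. The keratin limit alone left out 13 and 4 cells, and the C1q limit alone 0 and 1.

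Interferon-induced transcripts had the highest knockout-to-control medians of the lists tested. Of the type I interferon list, 17 genes reached 50 UMIs over both libraries. In all members 16 of the 17 were more than 2-fold higher in knockout and 0 more than 2-fold lower, with a median log2 ratio of 1.94. Over the 1588 genes tested, 10.8% were more than 2-fold higher and 7.49% more than 2-fold lower, with a median of 0.16. Without granule-transcript cells, 9 of 17 were more than 2-fold higher and the median was 1.24. Over the 1047 genes tested there, 4.11% were more than 2-fold higher and 3.92% more than 2-fold lower, with a median of -0.02. A log2 ratio compares the CPM of the summed UMIs, with 1 UMI added to each sum.

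Rsad2, which encodes the antiviral enzyme viperin, had the most UMIs of the 9 genes past 2-fold. Without granule-transcript cells it had 142 UMIs in 22 of 102 control cells and 501 UMIs in 33 of 65 knockout cells. Its level was 815 CPM (687 to 961) in control against 3863 CPM (3532 to 4217) in knockout, a log2 ratio of 2.24 (1.97 to 2.52). Over all members the log2 ratio was 3.03. In the same cells Cmpk2, a mitochondrial nucleotide kinase gene next to Rsad2 on chromosome 12, was at 40.2 and 401 CPM, from 7 and 52 UMIs, a log2 ratio of 3.15 (2.17 to 4.70). Slfn5, of the Schlafen family, was at 91.9 and 586 CPM, a log2 ratio of 2.60 (1.88 to 3.55). Both genes were higher in knockout with intervals that exclude equal levels.

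The promoters of Slfn5, Rsad2 and Ifit1 were picked to show matches to the core of the interferon-stimulated response element. They are the 3 genes of the list with the highest ratio over all members among those that had 50 or more UMIs and held a match to the core of the interferon-stimulated response element within the window. The sequences, from RefSeq on GRCm38.p6, are the 250 bases before each transcript's start, read 5′ to 3′ on the gene's own strand. They lie at chr11:82951852-82952101 (plus strand) for Slfn5, chr12:26456453-26456702 (minus strand) for Rsad2 and chr19:34640639-34640888 (plus strand) for Ifit1. Capitals mark matches to the core, which is GAAA, any 2 bases and GAAA again, or to its reverse complement, TTTC, any 2 bases and TTTC.
Slfn5: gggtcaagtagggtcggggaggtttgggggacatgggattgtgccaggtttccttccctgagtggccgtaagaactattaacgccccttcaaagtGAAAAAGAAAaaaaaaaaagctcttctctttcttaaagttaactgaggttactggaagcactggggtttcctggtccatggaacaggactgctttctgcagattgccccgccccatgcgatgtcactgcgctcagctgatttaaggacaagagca
Rsad2: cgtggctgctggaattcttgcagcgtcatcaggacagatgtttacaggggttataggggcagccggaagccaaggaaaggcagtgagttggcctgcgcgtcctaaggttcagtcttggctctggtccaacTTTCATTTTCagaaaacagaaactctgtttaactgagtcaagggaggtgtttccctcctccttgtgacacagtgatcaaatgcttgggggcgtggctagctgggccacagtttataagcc
Ifit1: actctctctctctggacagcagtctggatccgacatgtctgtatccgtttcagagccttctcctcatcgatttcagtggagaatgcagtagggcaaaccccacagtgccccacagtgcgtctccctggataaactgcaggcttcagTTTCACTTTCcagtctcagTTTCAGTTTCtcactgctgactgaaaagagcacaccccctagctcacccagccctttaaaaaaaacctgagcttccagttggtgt
Slfn5 and Rsad2 each hold 1 match in these bases, and Ifit1 holds 2. Searched on both strands in windows of 300 bases, from 250 before to 50 after the start, the motif was found in 13 of 25 genes of the list with a window (52%), in 6 of the 14 tested in members (42.9%), and in 3.99% of 27025 genes. It was in 3 of 16 chemokine and cytokine genes (18.8%) and in 0 of 12 secondary and tertiary granule genes. High ratios did not require a match. Cmpk2 (log2 ratio 3.80 over all members), Herc6 (2.75), Isg20 (2.45), Oasl1 (1.99) and Irf7 (1.94) held 0 matches, all above Ifit1 (1.93). Isg15 held 3 matches at 1.73, and Ifitm3 held 2 at 0.38. A match describes the letters of the window and shows no binding.

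Other effectors of the list moved in the same direction at more modest ratios. Without granule-transcript cells Isg15, a ubiquitin-like modifier, was at 1033 CPM (888 to 1196) in control against 1943 CPM (1711 to 2198) in knockout, a log2 ratio of 0.91 (0.63 to 1.2). Herc6, whose family includes ubiquitin ligases, was at 138 and 532 CPM, and the exonuclease gene Isg20 at 132 and 486 CPM. Rtp4 was at 138 and 432 CPM and the 2′-5′-oligoadenylate synthetase-like gene Oasl1 at 230 and 548 CPM. The transcription factor gene Irf7 was at 121 and 324 CPM, a log2 ratio of 1.39. Slfn4 was at 1211 and 2082 CPM, a log2 ratio of 0.78. Ifitm3, which encodes a membrane protein that blocks virus entry, differed less, with 873 and 1295 CPM and a log2 ratio of 0.57. For Oasl2, at 224 and 324 CPM, the interval of the log2 ratio included equal levels (0.53, from -0.13 to 1.2).

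**Figure D2:**
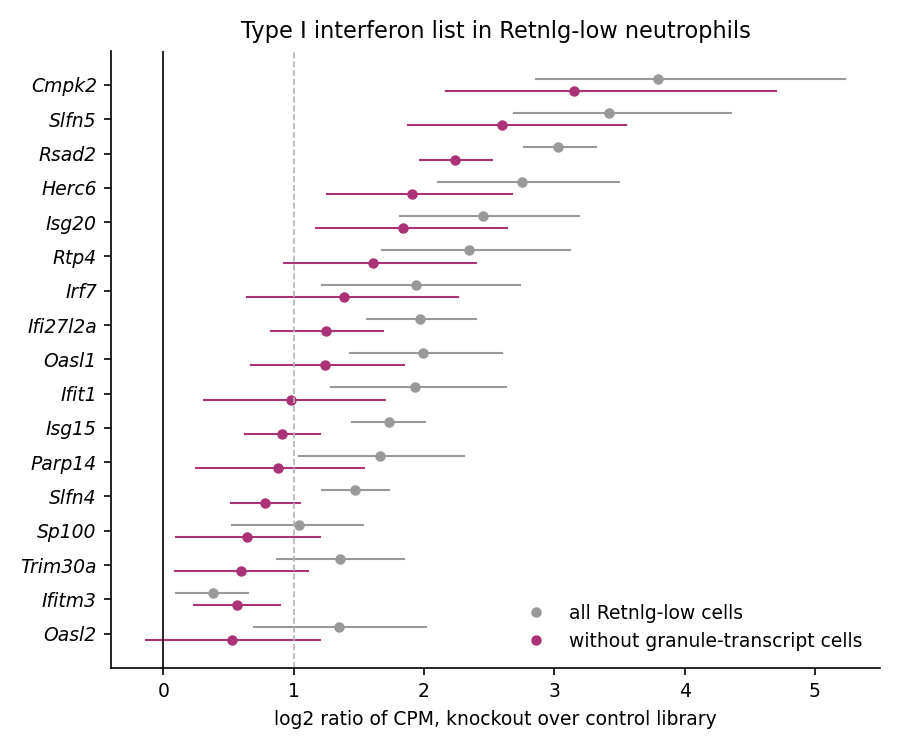
log2 ratio of CPM, knockout over control library, for the 17 tested genes of the type I interferon list, over all Retnlg-low cells (grey) and without granule-transcript cells (purple), with 95% exact counting intervals and a dashed line at 2-fold. All 17 points lie above 0 in both sets, and 9 of 17 purple points lie past the dashed line.

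The difference came with more cells that carried these transcripts. Leaving out granule-transcript cells, the list made up a median of 0.279% of a control cell's UMIs (quartiles 0.153 and 0.524, highest 5.51) and 0.898% of a knockout cell's UMIs (quartiles 0.315 and 2.72, highest 10.1). It reached 1% of the UMIs in 13 of 102 control cells (12.7%, 6.96 to 20.8) against 28 of 65 knockout cells (43.1%, 30.8 to 56). It reached 2% in 9 and 21 cells. The cells of both libraries overlap at the low end, and cells without any transcript of the list numbered 3 and 0. Rsad2 reached 5 UMIs in 7 control cells (6.86%) and 23 knockout cells (35.4%).

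**Figure D3:**
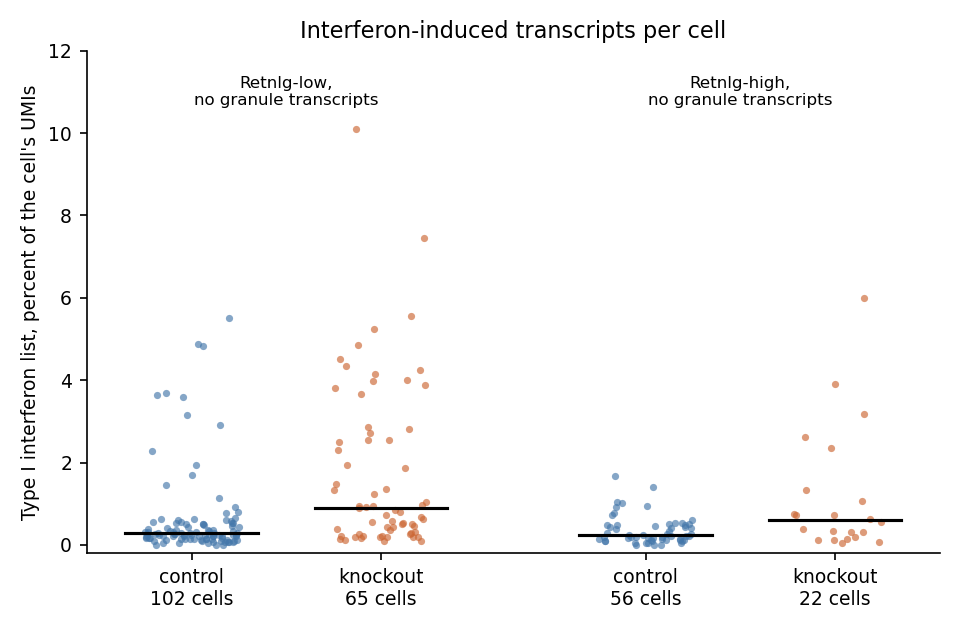
Type I interferon list as a percentage of each cell's UMIs, for Retnlg-low and Retnlg-high neutrophils without granule-transcript cells in each library, with a bar at the median. Each point is 1 cell. The medians are 0.279 and 0.898 in Retnlg-low and 0.23 and 0.597 in Retnlg-high cells of control and knockout, and the cells of the 2 libraries overlap at the low end.

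Shares at an equal depth gave the same order. After each cell was thinned to 1000 UMIs, Rsad2 had UMIs in 17.2% of control (10.3 to 26.1) and 41.5% of knockout members (29.4 to 54.4) without granule-transcript cells. Unthinned, Rsad2 was in 21.6% (14 to 30.8) and 50.8% (38.1 to 63.4). Thinned Isg15 was seen in 31.3% and 52.3% of these members. Tumour cells, which can hold both genes from their own expression or from free RNA, gave 3.1% and 5.7% for Rsad2 and 18.8% and 24.2% for Isg15 at the same depth.

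The higher interferon transcripts were not particular to the Retnlg-low cells. In Retnlg-high neutrophils the list's median log2 ratio was 1.17 over 6 tested genes, 4 of them more than 2-fold higher, beside a median of 0.04 and 5.31% of 716 genes more than 2-fold higher. In macrophages with C1q transcripts it was 0.97 over 30 genes, 15 of them more than 2-fold higher (1.71% of 6474 genes). In tumour cells it was 0.69 over 31 genes, 9 of them more than 2-fold higher (4.19% of 15760 genes). Rsad2 was at 94.1 and 2180 CPM in control and knockout Retnlg-high cells, 138 and 308 CPM in macrophages and 48.0 and 96.9 CPM in tumour cells. Isg15 was at 324 and 953, 224 and 505, and 330 and 407 CPM in the same order. Single cells held much of the Retnlg-high sums. Without the cell with the most UMIs of the gene, Rsad2 in Retnlg-high cells was at 23.9 CPM in control (12 of 16 UMIs left out) and 1242 CPM in knockout (70 of 151 left out). Isg15 without its top cell was at 268 and 552 CPM there. Rsad2 and Isg15 were higher in the knockout library in all 3 other cell groups, also without these cells.

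Transcripts that interferon gamma induces were also higher. Of the 13 tested genes of that list, 12 were more than 2-fold higher over all members, with a median log2 ratio of 1.53. Without granule-transcript cells it was 6 of 12 with a median of 0.97. Cd274, which encodes the checkpoint ligand PD-L1, in the latter set was at 741 CPM (618 to 880) in control against 2390 CPM (2132 to 2672) in knockout, a log2 ratio of 1.68 (1.39 to 2.0). Its UMIs were in 35 of 102 control cells (34.3%, 25.2 to 44.4) against 44 of 65 knockout cells (67.7%, 54.9 to 78.8). In Retnlg-high cells Cd274 was also higher in knockout, at 177 and 982 CPM. Cxcl10, a chemokine that attracts T cells, was at 149 and 517 CPM, a log2 ratio of 1.76 (1.12 to 2.50), with UMIs in 11 cells of each library. Gbp2b, a guanylate-binding protein gene, had 0 UMIs in control, which allows up to 17.2 CPM (3 UMIs in the control sum), and 42 UMIs in 18 knockout cells (324 CPM), at least 18.8-fold higher against that limit. Irf1, an interferon-induced transcription factor gene, was at 878 and 1241 CPM. Ifi47, an immunity-related GTPase gene, was at 115 and 316 CPM.

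T and NK markers summed to 11.5 CPM in control and 254 CPM in knockout members of that set, in 2 and 6 cells, and Cd3e was at 0 in control. A single knockout cell, which was also counted among the T cells, held 24 of the 33 T and NK UMIs. Acinar markers were found in 3 of all 118 control members (5 UMIs) and in 15 of 67 knockout members (77 UMIs, 22.4% of cells). The part of transcripts from other cells in the interferon gamma values was not tested. Among receptors for the interferons, Ifnar1 was at 74.6 and 84.8 CPM and Ifngr1 at 167 and 61.7 CPM in the members without granule-transcript cells.

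MHC class I genes, which include the peptide-loading genes Tap1, Psmb8 and Psmb9, had a median log2 ratio of 0.88 over 8 tested genes in all members and 0.27 over 7 without granule-transcript cells, with 2 more than 2-fold higher in each. Without those cells Tap1 was at 103 and 254 CPM, a log2 ratio of 1.27 (0.43 to 2.22), and the log2 ratios of Psmb8 and Psmb9 were 1.13 and 1.33. Only 2 tested genes passed 2-fold there, so not all of these ratios are from genes that reached the UMI minimum for testing. All 7 tested genes of the list were above 0, but the others did not pass 2-fold. Only 3 of the 7 were at or above the level of cells outside the neutrophil gate, in the library where they were higher. The part of RNA from other cells was not tested. The list's median was 0.22 in macrophages and 0.29 in tumour cells, with 13 of 14 tested genes above 0 in each, and -0.05 over 3 genes in Retnlg-high cells. Tap1, Psmb8 and Psmb9 are also on the interferon gamma list.

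Chemokine and cytokine transcripts were abundant in members of both libraries, and their difference was small once the granule-transcript cells were set aside. Over all members, 8 of 13 tested genes were more than 2-fold higher in knockout and 1 more than 2-fold lower, with a median log2 ratio of 1.16. Without granule-transcript cells 2 were higher and 1 lower past 2-fold, with a median of 0.48, and 11 of 13 were above 0. In all Retnlg-high cells the list's median was 1.10 over 8 tested genes, 8 of them above 0 and 4 more than 2-fold higher. There Il1b was at 4135 CPM in control and 7349 CPM in knockout, Ccl4 at 1312 and 3537 CPM, and Il1rn at 206 and 1155 CPM. In macrophages the list's median was -0.11.

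Il1b was at 9857 CPM (9397 to 10335) in control against 9299 CPM (8782 to 9839) in knockout members without granule-transcript cells, a log2 ratio of -0.08 (-0.19 to 0.02). The intervals of the 2 levels overlap. Over all members its log2 ratio was 0.71. Cxcl2 was at 15162 CPM (14589 to 15752) and 18783 CPM (18045 to 19544), a log2 ratio of 0.31 (0.23 to 0.39), against 1.16 over all members. Il1b was level within its interval, and Cxcl2 was slightly higher in knockout. Cxcl2 reached 20 UMIs in 41 of 102 control cells (40.2%) and 29 of 65 knockout cells (44.6%), and Il1b reached 10 UMIs in 57.8% and 60%. After thinning, Il1b was seen in 0.3% of control and 0.1% of knockout tumour cells and Cxcl2 in 0.4% and 0.1%, against 89.9% and 98.5% and against 73.7% and 72.3% of these members.

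Ccl3 and Ccl4, neighbouring CC chemokine genes on chromosome 11, were higher in knockout. Ccl4 was at 2182 CPM (1968 to 2412) in control against 4865 CPM (4493 to 5260) in knockout, a log2 ratio of 1.16 (0.97 to 1.34). Ccl3 was at 2250 CPM (2033 to 2485) and 3146 CPM (2848 to 3467), a log2 ratio of 0.48 (0.28 to 0.69). Ccl3 and Ccl4 UMIs added together reached 10 in 25 of 102 control cells (24.5%, 16.5 to 34). In knockout this sum reached 10 in 28 of 65 cells (43.1%, 30.8 to 56). Cells with UMIs of neither gene were 40 in control and 14 in knockout. Single cells weighed on the sums, since the highest knockout cell held 125 Ccl4 UMIs and the highest control cell 60.

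Il1rn, which encodes the interleukin-1 receptor antagonist, was at 890 and 1511 CPM in control and knockout, a log2 ratio of 0.76 (0.45 to 1.08). Tnf was at 362 and 594 CPM (log2 ratio 0.71), Ccl6 at 1114 and 1619 CPM (0.54) and Csf1, the macrophage growth factor gene, at 626 and 779 CPM (0.32). Cxcl3, another attractant of neutrophils, went the other way, with 798 CPM (671 to 942) in control against 185 CPM (119 to 275) in knockout, a log2 ratio of -2.06 (-2.80 to -1.48). Its UMIs came from 16 control and 6 knockout cells, and 1 knockout cell held 15 of the 24. Cxcl1 had 26 UMIs in 3 control cells and 1 UMI in knockout, and Il6 had 0 in both. In Retnlg-high cells Cxcl3 was at 177 and 433 CPM, where all 30 knockout UMIs came from 1 cell.

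**Figure D4:**
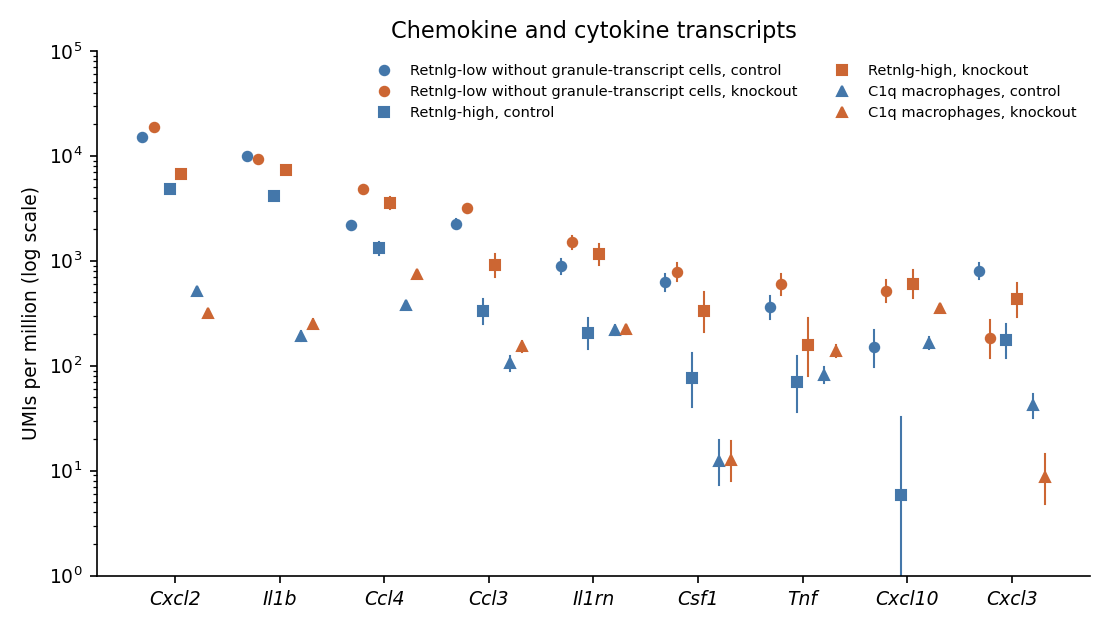
Level in CPM (log scale) of 9 chemokine and cytokine genes in Retnlg-low neutrophils without granule-transcript cells (circles), Retnlg-high neutrophils (squares) and macrophages with C1q transcripts (triangles), with control in blue, knockout in orange and 95% exact Poisson intervals. Cxcl2 and Il1b lie near each other between the libraries in Retnlg-low cells, Ccl4 is higher and Cxcl3 lower in knockout; the interval of Cxcl10 in control Retnlg-high cells runs below the axis.

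Genes of the tumour neutrophil list were higher on balance. Of 17 tested genes of the list, which also holds Cd274, Ccl3 and Ccl4, 11 were more than 2-fold higher over all members (median log2 ratio 1.30) and 7 without granule-transcript cells (median 0.68, 14 of 17 above 0). Id2, which encodes an inhibitor of helix-loop-helix factors, was at 115 and 532 CPM in control and knockout in the latter set, a log2 ratio of 2.16 (1.48 to 3.01). The transcription factor genes Bhlhe40 and Atf3 were at 121 and 339 CPM and at 557 and 1164 CPM. Hilpda, a hypoxia-induced lipid droplet gene, was at 23 and 208 CPM. Its UMIs in that set lay below the minimum for a tested gene, so Hilpda is not among the tested genes counted there. Ptgs2, which encodes cyclooxygenase-2, was level at 1728 and 1627 CPM. Of the arginase genes, Arg2 was lower at 1033 and 532 CPM, a log2 ratio of -0.95 (-1.38 to -0.55), and Arg1 had 0 and 1 UMI. The whole list of suppression-associated genes had a median of 0.09 over 10 tested genes in this set and 0.65 over all members.

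Outside the lists, Dock10, a guanine nucleotide exchange factor gene, was at 121 and 509 CPM and the TNF receptor adaptor gene Traf1 at 109 and 254 CPM in control and knockout members without granule-transcript cells. The lowest ratios there were those of Cacnb2 (264 and 30.8 CPM, log2 ratio -2.81), Slpi, Cxcl3, St8sia4 (350 and 84.8 CPM, -1.94), Mpp7 (494 and 123 CPM, -1.93) and Dock8 (264 and 69.4 CPM, -1.81). Slpi, which encodes a secreted inhibitor of neutrophil elastase, was at 1923 CPM (1723 to 2141) in control against 293 CPM (207 to 402) in knockout, a log2 ratio of -2.68 (-3.24 to -2.23). Its UMIs were found in 68 of 102 control cells and 16 of 65 knockout cells. The log2 ratio of Slpi was -2.08 in Retnlg-high neutrophils, -1.97 in macrophages and -1.78 in tumour cells, so Slpi was lower in those groups too. In the knockout tumour cells 1 cell held 565 of its 1199 UMIs. Lrg1, a secreted glycoprotein gene, was at 322 and 100.2 CPM (-1.60).

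Receptor genes differed little as a list, and the direction depended on the granule-transcript cells. The median log2 ratio of chemoattractant and growth factor receptors was 0.17 over 14 genes in all members, 2 of them more than 2-fold higher, and -0.43 over 12 genes without those cells, 0 of them past 2-fold and 3 above 0. Cxcr2, the receptor for Cxcl1, Cxcl2 and Cxcl3, was at 1108 CPM (957 to 1276) in control against 686 CPM (551 to 844) in knockout, a log2 ratio of -0.68 (-1.07 to -0.32). Its UMIs were in 78 of 102 control cells (76.5%, 67 to 84.3) against 39 of 65 knockout cells (60%, 47.1 to 72), and after thinning in 60.6% and 35.4%, against 0% of macrophages in both libraries. Over all members the log2 ratio of Cxcr2 was 0.00. Il1r2, the decoy receptor for interleukin-1, was at 3043 and 2005 CPM (-0.60, from -0.82 to -0.39). Ccrl2, a chemerin-binding receptor gene, was higher, at 1269 and 2421 CPM (0.93, from 0.68 to 1.19).

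Granule genes were lower in knockout over all members, and most of that lay in the granule-transcript cells. Of 13 tested secondary and tertiary granule genes, 10 were more than 2-fold lower and 0 higher, with a median log2 ratio of -2.02. Of 5 primary granule genes 5 were more than 2-fold lower, with a median of -2.17. Camp was at 25977 CPM (25454 to 26509) in control against 6382 CPM (5991 to 6792) in knockout members, and Ngp at 16163 and 2099 CPM. Ltf was at 2335 and 277 CPM and Elane at 2429 and 354 CPM. Few cells held the Elane UMIs. It reached 5 UMIs in 3 control cells, the highest with 619, and in 1 knockout cell, with 55. Lcn2, an iron-siderophore-binding protein of these granules, was at 4945 and 419 CPM, and Mki67 at 244 and 12.9 CPM. Of 8 tested precursor and cell cycle genes, 7 were more than 2-fold lower (median -1.48). Without granule-transcript cells 0 of the 8 tested secondary and tertiary genes passed 2-fold, with a median of -0.43, and Ltf had only 7 UMIs in control and 10 in knockout (log2 ratio 0.88, from -0.60 to 2.57). Granule-transcript cells were 13.6% (7.95 to 21.1) of control and 2.99% (0.364 to 10.4) of knockout members, but 17.6% and 18.5% of Retnlg-high cells. The limit met no gap in Retnlg-high cells, where control cells had sums of 17 and 20 UMIs. The cells also differed in kind. Mki67 was in 13 of 16 control members with granule transcripts, but in 0 of 12 control and 0 of 5 knockout Retnlg-high ones. Cxcr2 was in 6 of 16 such control members and 11 of 12 such control Retnlg-high cells.

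**Figure D5:**
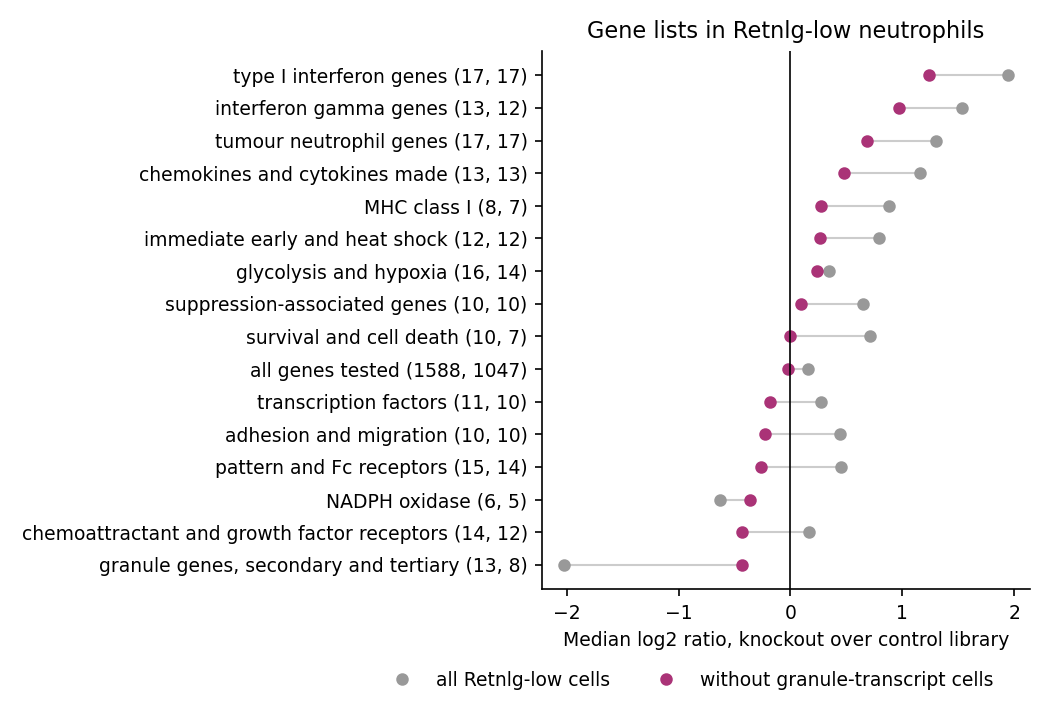
Median log2 ratio, knockout over control library, of each gene list in Retnlg-low neutrophils, over all members (grey) and without granule-transcript cells (purple), with the number of tested genes in each set in brackets. The interferon lists have the highest medians in both sets, and the granule list moves from -2.02 to -0.43.

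Within each library the members were set beside the Retnlg-high neutrophils. These values describe cells that the selection itself split, and each library is 1 observation. In control, 14.9% of 1588 genes were more than 2-fold higher in Retnlg-low cells and 7.3% more than 2-fold lower. In knockout, 15.2% of 735 genes were higher and 4.63% lower. Chemokine and cytokine genes were higher in Retnlg-low cells, with 6 of 12 past 2-fold in control (median log2 ratio 0.82) and 4 of 12 in knockout (0.34, 1 lower past 2-fold). Without granule-transcript cells on either side, the medians were 1.2 in control and -0.18 in knockout, so the knockout direction turned. Genes of the tumour neutrophil list had medians of 0.77 and 0.87, and 1.16 and 0.42 without granule-transcript cells.

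Clec4n, which encodes the fungal-sensing lectin Dectin-2, was at 335 and 438 CPM in control and knockout Retnlg-low cells and at 29.4 and 115 CPM in Retnlg-high cells, log2 ratios of 3.26 and 1.77. Tnf was at 224 and 541 CPM in Retnlg-low and 70.6 and 159 CPM in Retnlg-high cells, log2 ratios of 1.57 and 1.66. The Retnlg-high levels rested on few UMIs, 5 in control and 8 in knockout for Clec4n and 12 and 11 for Tnf. A single knockout cell held 4 of the 8 Clec4n UMIs. Ccl3 had log2 ratios of 1.70 and 1.61, and Ptgs2 of 0.81 and 1.48. Clec4n, Tnf, Ccl3 and Ptgs2 kept this direction in both libraries when granule-transcript cells were left out on both sides (3.79 and 1.40, 2.64 and 1.29, 2.26 and 1.14, and 1.35 and 1.10). Mmp8, which encodes a neutrophil collagenase, was at 49.9 and 32.2 CPM in Retnlg-low cells and 935 and 1357 CPM in Retnlg-high cells. Its log2 ratios were -4.16 and -5.15. Mmp9 was also lower (-1.55 and -1.09), as was the glucose transporter gene Slc2a3 (-1.96 and -1.64) and the glycogen phosphorylase gene Pygl (-1.2 and -1.32).

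Rsad2 was higher in Retnlg-low than in Retnlg-high cells of the control library, with a log2 ratio of 1.99 over all and 2.80 (2.08 to 3.84) without granule-transcript cells, but in knockout the latter was 0.21 (-0.05 to 0.50). The difference between these was not tested.

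The targeted gene could not be checked in the members. Porcn had 0 UMIs in members of both libraries, which allows up to 8.31 CPM in control and 19.3 CPM in knockout (3 UMIs), and 5 UMIs in control and 0 in knockout macrophages. Csf1r, whose promoter drives the Cre, had 13 UMIs in 9 control members (36.0 CPM) and 4 UMIs in 4 knockout members (25.8 CPM), against 252 and 288 CPM in macrophages. Wls, the Wnt carrier gene, had 29 and 10 UMIs in members. Among Wnt ligand genes Wnt6 and Wnt9a had 1 UMI each and Wnt10a had 2, all in control members.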

How the data were processed

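Tumours were minced, digested with Collagenase V and DNase I, cleared of red cells and enriched for viable cells, and libraries were made with a Chromium 3′ v3.1 kit, per the labels' protocols. The deposited values are UMI counts per gene and barcode that had not been normalised, and per the file headers Cell Ranger 8.0.0 wrote them. The submitters' processing notes name Cell Ranger 3.1.3 and the build mm10. Cells and lists were computed with Python 3.11.15, numpy 2.4.6, scipy 1.17.1 and pandas 2.3.3, and doublets, which were kept, with Scrublet in scanpy 1.11.5 (expected rate 0.08). UMIs were summed per group and library and given as CPM with exact Poisson intervals; shares have Clopper-Pearson intervals. UMIs are molecules, so intervals cover counting error only. Lists were counted over genes with 50 or more UMIs over the groups compared (a ratio below that is given with its UMIs or said to lie below it). The ratio of 2 sums and its interval were tested on simulated sums, and the other steps were not. Gene positions come from GENCODE M21 (32158 of 32285 identifiers matched).

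Macrophages had 10 or more C1q UMIs and at most 5 keratin UMIs, tumour cells 20 or more keratin UMIs. Genes named outside the lists are among the 12 highest or lowest ratios with UMIs in at least 10 cells. Knockout over control, they also had no cell above 20% of the UMIs and levels not below those of cells outside the gate. Retnlg-low over Retnlg-high, they had the same sign in both libraries, and levels outside the gate were not used. The single-cell limit was applied there only without granule-transcript cells. Of 420 list genes 418 were found. Clec7a and Mx1 are not analysed here. The members and the gene lists were chosen with earlier results of these data known. Columns without a sample numbered 0. Alternatives covered the cell filters, the Retnlg and S100 limits, doublets, other lineages, scaling, pseudocount, minimum count and depth.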

Additional observations from a re-analysis of the deposited data

Results flagged for a closer look

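Some lists had median log2 ratios of opposite sign in 2 settings of the same contrast. These differences were not tested. Retnlg-low over Retnlg-high cells, the median of chemoattractant and growth factor receptors was -0.17 in control and 0.26 in knockout. For pattern and Fc receptors it was -0.11 and 0.16, and for transcription factors -0.15 and 0.15. Without granule-transcript cells on either side, the receptor medians were 0.32 in control and 0.12 in knockout. Those of pattern and Fc receptors were 0.51 and 0.08, and those of transcription factors 0.25 and -0.01. Knockout over control, alarmins and calcium-binding genes had a median of 0.13 in all Retnlg-low and -0.15 in Retnlg-high cells. The chemoattractant and growth factor receptors had 0.17 and -0.22, and adhesion and migration genes 0.44 and -0.32. In Retnlg-low cells without granule-transcript cells these medians were -0.33, -0.43 and -0.23, the same sign as in Retnlg-high cells.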

How the results depend on the processing

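The knockout-to-control ratio of member shares lay between 0.466 and 0.688 over 10 alternatives. The type I interferon median ran from 1.24 to 2.35 and the interferon gamma median from 0.97 to 1.88 over 17 alternatives. Members were 44.6% and 50% of gated neutrophils in control and knockout with Retnlg at 0, 72% and 84% with Retnlg up to 5, and 48.4% and 56.4% with Retnlg under 500 CPM. Knockout over control, leaving out granule-transcript cells (chosen after seeing the data) gave medians of 1.24 (type I interferon), 0.68 (tumour neutrophil), 0.48 (chemokines) and -0.43 (granule), with 4.11% of genes higher and 3.92% lower past 2-fold. Thinned cells gave 1.29 for type I interferon and -1.37 for granule genes, 5.98% higher and 4.09% lower. Without cells holding other-lineage UMIs the granule median was -3.15, with 23.1% higher and 16.4% lower. The mean of per-cell CPM gave -1.23 and 5.54% higher, no UMI minimum 25.6% higher, and a pseudocount of 5 UMIs 4.09% lower. Retnlg-low over Retnlg-high in control, the granule median reversed to 0.13 with Retnlg at 0 and to 0.31 under 500 CPM, and was -0.78 thinned and -1.52 without granule-transcript cells. The control chemokine median was 0.23 at 800 or more genes and 0.05 both under 500 CPM and without other-lineage cells. In knockout, granule was -2.90 without other-lineage cells and -0.35 without granule-transcript cells, tumour neutrophil 1.80 with Retnlg up to 5, and chemokines 1.0 at 800 genes, 1.38 with Retnlg up to 5 and -0.18 without granule-transcript cells (reversed). Among named genes, knockout over control reversed for Ltf (0.88), Ifitm6 (0.03), Chil3 (0.43) and Adpgk (2.01) without granule-transcript cells, each under 50 UMIs there and with an interval that includes equal levels, and for Cep128 (0.04) thinned; low over high in control reversed for Pde4d (-0.22 thinned, -0.76 without granule-transcript cells) and Naca (-0.05 without them). The cause of each shift was not tested beyond the cells or UMIs an alternative removes. No paired analysis was possible because each group is 1 library. No replicate could be left out. Member depth, a median of 1768 and 1861 UMIs, limits what low genes can show.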

Other observations

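The NADPH oxidase genes, whose enzyme makes the neutrophil's oxidative burst, had a median log2 ratio of -0.63 over 6 genes in all members and -0.36 over 5 without granule-transcript cells, where 0 passed 2-fold. Cybb, the catalytic subunit gene, was the gene with the largest shift, from 471 CPM in control to 83.7 CPM in knockout over all members, but at 80.4 and 38.6 CPM from 14 and 5 UMIs without those cells (log2 ratio -0.90, from -2.89 to 0.49).

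Survival genes were near level once granule-transcript cells were left out, with a median of -0.00 over 7 tested genes and 0 past 2-fold. Mcl1, which neutrophils need to stay alive, was at 2153 CPM (1940 to 2382) in control against 2413 CPM (2153 to 2696) in knockout. Pim1, a survival kinase gene, was at 2538 and 2506 CPM, and Bcl2l11, which encodes the death-promoting protein BIM, at 379 and 224 CPM (-0.73, from -1.44 to -0.11). Nfkbia, an NF-kappa-B target and inhibitor, was at 2595 and 3809 CPM (0.55, from 0.37 to 0.74).

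Members that combined 20 or more Cxcl2 UMIs with 5 or more Rsad2 UMIs were 3 of 102 in control and 13 of 65 in knockout, without granule-transcript cells.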
